A study of Mus musculus with 20 samples.

Results

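The genes described here encode the Wnt ligands, their Frizzled receptors and 3 families of secreted modulators of the pathway, measured by RNA sequencing of whole mouse liver. Members were all protein-coding genes whose GENCODE M21 symbol is Wnt, Fzd, Rspo, Sfrp or Dkk followed by a number and at most the letter a or b. The rule found 41 of 46603 gene identifiers in the count tables, of which 21547 are protein-coding. They are 19 Wnt, 10 Fzd, 4 Rspo, 4 Sfrp and 4 Dkk genes. The rule uses gene symbols and no expression value, but it was set with earlier results of these data known.

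Wnt proteins are secreted, lipid-modified signals that bind Frizzled receptors together with LRP co-receptors. In the canonical branch this stops the destruction of beta-catenin, which then works with TCF and LEF factors in the nucleus, while Wnt5a and Wnt11 are best known for beta-catenin-independent signalling. R-spondins (Rspo) strengthen the signal by keeping Frizzled receptors at the cell surface, secreted Frizzled-related proteins (Sfrp) bind Wnt ligands, and the classical Dickkopf proteins (Dkk) block the LRP co-receptors. In the adult liver, endothelial cells around the central vein are a known source of Wnt2, Wnt9b and Rspo3, which maintain the gene programme of the neighbouring hepatocytes. EED is a core subunit of polycomb repressive complex 2 (PRC2), which places a repressive methyl mark on histone H3 at many developmental genes.

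The study compared male mice aged 2 months in 4 groups of 5 libraries. Wild-type (WT) mice were purchased C57BL/6J animals. EedHepKO mice (KO) were bred from a line that expresses Cre from the albumin promoter. The other parent line carries loxP sites around exons 3 and 6 of Eed, so that functional EED is lost in hepatocytes. Whether Eed was also deleted in other liver cells, such as cholangiocytes, was not measured. The labels do not say that WT mice carried Cre or the loxP alleles, so genotype and colony cannot be told apart. Each mouse gave lobes 1, 2 and 3 at partial hepatectomy (baseline, 0 h) and lobes 4, 5 and 6 later (after PHx), so stage and lobe cannot be told apart. Collection after PHx was at 30 h for WT mouse 1 and KO mouse 12, at 40 h for WT mice 2 and 3 and KO mice 10 and 11, and at 48 h for WT mice 4 and 5 and KO mice 7 and 8. Values are listed below in the order of mouse number, WT 1 to 5 and KO 7, 8, 10, 11 and 12. The title of the first WT baseline library carries no mouse number, and this library is listed as WT mouse 1. Compared count by count with the other WT baseline libraries, it gave a chi-square per gene of 331 to 361. Among those other libraries the chi-square per gene was 27.2 to 40.7.

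Total counts ran from 21634890 to 30461351 per library. Levels are in counts per 1000000 (CPM) of the total scaled by the TMM method, and each comparison used edgeR's quasi-likelihood test over 14661 genes, and a gene was called where its p, adjusted by Benjamini-Hochberg, fell under 0.05. Eed, counted over the whole gene and so including exons outside the deletion, lay between 14.6 and 23.2 CPM in WT libraries and between 2.74 and 7.52 CPM in KO libraries. Libraries after PHx were unlike each other in proliferation, with Mki67 from 0.217 to 328 CPM in WT and from 3.41 to 119 CPM in KO, the highest being WT mouse 5 and KO mouse 10. The liver label was borne out by the level of the hepatocyte list, whose 7 matched markers summed to at least 47990 CPM in every library. No list of markers of another cell type summed to more than 585 CPM in any library.

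Of the 41 members, 24 had at least 1 count in WT baseline liver, 29 in WT liver after PHx, 35 in KO baseline liver and 39 in KO liver after PHx. Rspo2 and Wnt8a had no count in any library. Over the summed counts of each group, 30 members were higher and 6 lower in KO at baseline and 5 had no count in either genotype. After PHx 33 were higher and 6 lower in KO. Among members with a count this was 83.3% higher at baseline and 84.6% after PHx, beside 53.6% and 57.5% of all protein-coding genes with a count. A filter on low counts decided which genes were tested, and the background differs on its sides. Of the 20 members below the filter, 80% and 83.3% of those with a count were higher in KO, beside 74.3% and 77.9% of protein-coding genes below it. Of the 21 members above it, 85.7% were higher at each stage, beside 48.8% and 51.6% of protein-coding genes above it. Summed over the 19 Wnt genes, the level was 9.62 ± 1.97 CPM in WT and 16.9 ± 3.86 CPM in KO at baseline, and 19.6 ± 6.66 CPM and 52.7 ± 13.7 CPM after PHx (SD, n = 5 each). The 10 Fzd genes together reached 57.7 ± 16.1 CPM in WT and 60 ± 13.4 CPM in KO at baseline, against 46.1 ± 11.8 CPM and 106 ± 32.8 CPM after PHx.

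Only 21 members had enough counts to be tested, and a gene silent in most groups passes that filter only through the group in which it is expressed. The edgeR fit called 5 of them higher in KO at baseline, Dkk3, Fzd3, Wnt4, Wnt10a and Wnt16, and 0 lower, where 11.1% of all tested genes were called higher and 4.89% lower. After PHx it called 16 higher in KO and 0 lower, beside 16% and 8.20% of all tested genes: Dkk3, Sfrp1, Fzd1, Fzd2, Fzd3, Fzd4, Fzd5, Fzd6, Fzd8, Wnt4, Wnt5a, Wnt7b, Wnt9a, Wnt10a, Wnt11 and Wnt16. At an unadjusted p under 0.05, 0 members were lower in KO at baseline and 1 after PHx, and DESeq2 called 0 lower at either stage. Without KO mouse 10 after PHx, the KO library with the most Mki67, the same 16 members were called higher and Wnt9b lower. Fzd9 and Fzd10, of which that library held 1 and 0 counts, then passed the filter and were called higher too. They passed it through KO libraries, so these calls add no support. In a fit of the 10 samples after PHx alone 11 of the 16 were called; Fzd1, Fzd4 and Sfrp1 were not, and Wnt7b and Wnt16 did not pass the filter. The median log2 difference of the tested members was 0.99 at baseline and 2.21 after PHx, beside -0.0279 and -0.0105 over all tested genes.

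Levels in bulk liver combine the cell types, so fewer cells of a type and less RNA per cell cannot be told apart, and markers of other cell types moved with genotype. The summed level of 8 stellate cell and fibroblast markers was 163 to 263 CPM in WT and 432 to 585 CPM in KO at baseline, and 173 to 240 CPM and 284 to 504 CPM after PHx. In the edgeR fit 6 of these 8 genes were higher in KO at baseline and 4 after PHx. The 8 cholangiocyte markers summed to 15.1 to 43.7 CPM in WT and 42.4 to 95.3 CPM in KO at baseline. After PHx they summed to 19.6 to 51.7 CPM in WT and to 255, 202, 51.9, 218 and 80.6 CPM in KO, with 6 of 7 tested genes higher in KO. Macrophage markers summed to 134 to 228 CPM in WT and 306 to 391 CPM in KO at baseline and overlapped after PHx, at 60.1 to 312 CPM and 67.6 to 329 CPM. Endothelial markers summed to 211 to 241 CPM and 262 to 302 CPM at baseline, and to 117 to 188 CPM and 130 to 240 CPM after PHx. The 7 matched hepatocyte markers summed to 124300 to 146200 CPM in WT and 77790 to 110900 CPM in KO at baseline, and to 78070 to 130800 CPM and 47990 to 104900 CPM after PHx. Mesothelial markers summed to under 5 CPM and lymphocyte markers to under 5 CPM in every library. No marker of these lists was at 0 throughout a group except the mesothelial Upk1b in WT baseline liver. The part of these cell types in the differences described below was not tested.

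Among the ligands, Wnt10a and Wnt16 went from no count in any WT baseline library to a count in all 5 KO baseline libraries. Wnt10a (chr1:74791516-74804179), a canonical ligand known from tooth, hair and skin development, measured 0.962, 0.296, 0.448, 0.208 and 0.422 CPM in KO baseline liver, where the edgeR fit called it higher at an adjusted p of 0.00742 and the pooled counts put it at least 16.1-fold above the limit of 3 counts over the WT group. After PHx it reached 0.218, 3.56, 0.913, 0.319 and 0.309 CPM in WT and 15.9, 3.33, 14.9, 5.93 and 20.6 CPM in KO. The highest WT value was exceeded by 4 of the 5 KO values, and KO mouse 8 lay just below it. The KO excess after PHx was 11.4-fold, log2 3.51 (SE 0.76), with an edgeR adjusted p of 0.00344, and 27.2-fold without WT mouse 2. The Wnt10a gene was also called higher after PHx than at baseline in both genotypes, at least 32.7-fold in WT (edgeR adjusted p = 0.0019; at least 14.5-fold without WT mouse 2, which held 82 of the 129 counts) and 25.4-fold in KO (edgeR adjusted p = 0.00152). Its neighbour Wnt6, which ends 6193 bases upstream on the same strand, had no count in WT, 5 counts in KO at baseline and 20 in KO after PHx, 17 of them in KO mouse 11.

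Wnt16 (chr6:22288227-22298522), a ligand known from bone and joint, had no count in any of the 10 WT libraries. It measured 1.66, 1.23, 1.76, 1.16 and 0.657 CPM in KO baseline liver and 0.209, 0.0658, 0.61, 5.16 and 0.0946 CPM in KO liver after PHx, so that KO mouse 11 alone held most of the signal after PHx. Against the limit of 3 counts over the WT group it was at least 44.0-fold higher at baseline and at least 56.9-fold higher after PHx, with edgeR adjusted p of 0.0114 and 0.00609. Without KO mouse 11 the bound after PHx was 9.57-fold (adjusted p = 0.00489 in the fit). The 5 baseline values were close to each other, while those after PHx spread widely. Between baseline and PHx in KO the fitted log2 difference was -0.07 (SE 0.99), not called with all libraries (edgeR adjusted p = 0.966); without KO mouse 11 after PHx it was -2.42, at an edgeR adjusted p of 0.0251.

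Wnt4 (chr4:137277489-137299726), a ligand known from kidney and female reproductive tract development, was the third ligand called higher in KO at both stages. At baseline it measured 1.17, 0.70, 1.03, 0.779 and 1.79 CPM in WT and 6.3, 1.77, 2.65, 2.2 and 1.74 CPM in KO. KO mouse 7 stood far above the other 4, and the lowest KO values lay just under the highest WT value. The difference was 2.68-fold with an edgeR adjusted p of 0.0202; it was no longer called without KO baseline mouse 7 (log2 0.99, adjusted p = 0.0786), without WT baseline mouse 2 (0.057) or without WT baseline mouse 4 (0.0587). After PHx the values were 0.784, 0.565, 0.609, 1.31 and 1.03 CPM in WT and 3.77, 7.08, 5.53, 5.71 and 2.79 CPM in KO, with no overlap. This was a 5.76-fold difference, log2 2.53 (SE 0.41), with an edgeR adjusted p of 0.000215. The KO response was not called (edgeR adjusted p = 0.14), except without KO baseline mouse 7 (0.0203).

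Wnt11 (chr7:98835112-98855195), which acts in tissue movements of the embryo, had no count in WT baseline liver and only 4 counts in WT liver after PHx, all in mouse 4. In KO it measured 0.232, 0.127, 0.345, 0.0415 and 0.0939 CPM at baseline and 14.9, 2.94, 0.534, 1.64 and 20.3 CPM after PHx. All 5 KO libraries after PHx lay above every KO baseline and every WT library, and mice 7 and 12 were far above the other 3. The edgeR fit put KO above WT after PHx by log2 7.84 (SE 1.23), adjusted p = 0.000288, a size that rests on the 4 WT counts. Without WT mouse 4, KO was at least 236-fold above the limit of 3 counts over the other 4 WT libraries, and without KO mouse 12 the fitted log2 difference was 7.16. Within KO, Wnt11 was 45.5-fold higher after PHx than at baseline, with an edgeR adjusted p of 0.00221, and 28.3-fold without KO mouse 12. At baseline KO was at least 5.89-fold above the limit of 3 counts over the WT group, and this was not called (edgeR adjusted p = 0.0723). Part of a Wnt11 exon overlaps Gm8398, a processed pseudogene on the other strand, by 364 bases, and whether reads were counted by strand is not given in the sources used here.

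The promoters of these ligands differed in how many CG pairs they hold, the dinucleotide that marks CpG islands, where PRC2 is known to bind. RefSeq promoter windows of 300 bases on GRCm38.p6, from 250 bases before to 50 bases after the start, matched 27 of the 41 members in 30 windows. Shown 5′ to 3′ on the gene's strand, with each CG pair in capitals, are Wnt11 at chr7:98834862-98835161 on the plus strand, Wnt4 at chr4:137277385-137277684 on the plus strand, Wnt16 at chr6:22287977-22288276 on the plus strand and, as a ligand not called between genotypes, Wnt9b at chr11:103749772-103750071 on the minus strand:
Wnt11: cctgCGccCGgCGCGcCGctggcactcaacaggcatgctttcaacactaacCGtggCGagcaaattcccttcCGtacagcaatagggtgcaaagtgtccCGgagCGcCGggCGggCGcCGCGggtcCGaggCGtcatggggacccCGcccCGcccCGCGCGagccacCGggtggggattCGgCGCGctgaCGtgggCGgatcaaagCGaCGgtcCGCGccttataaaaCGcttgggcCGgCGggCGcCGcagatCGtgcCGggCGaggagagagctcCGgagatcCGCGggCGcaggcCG
Wnt4: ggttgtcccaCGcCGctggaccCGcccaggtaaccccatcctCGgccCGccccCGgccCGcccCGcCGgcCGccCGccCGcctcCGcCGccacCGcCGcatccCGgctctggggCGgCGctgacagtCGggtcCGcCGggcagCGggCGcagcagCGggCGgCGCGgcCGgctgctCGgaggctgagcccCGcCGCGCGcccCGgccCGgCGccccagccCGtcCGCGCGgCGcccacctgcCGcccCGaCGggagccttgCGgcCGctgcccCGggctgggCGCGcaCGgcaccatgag
Wnt16: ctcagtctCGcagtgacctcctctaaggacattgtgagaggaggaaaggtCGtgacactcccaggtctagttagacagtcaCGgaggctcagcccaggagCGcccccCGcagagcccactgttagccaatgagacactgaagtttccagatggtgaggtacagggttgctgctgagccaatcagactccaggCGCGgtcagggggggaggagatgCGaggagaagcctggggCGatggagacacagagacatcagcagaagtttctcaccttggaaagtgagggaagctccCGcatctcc
Wnt9b: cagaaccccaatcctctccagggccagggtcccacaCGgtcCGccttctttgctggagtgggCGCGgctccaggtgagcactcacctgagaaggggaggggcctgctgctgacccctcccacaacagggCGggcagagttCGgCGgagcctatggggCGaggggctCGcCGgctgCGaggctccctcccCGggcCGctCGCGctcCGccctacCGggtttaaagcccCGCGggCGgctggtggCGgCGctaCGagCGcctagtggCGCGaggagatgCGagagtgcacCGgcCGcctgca

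The Wnt4 window holds 51 CG pairs, Wnt11 45, Wnt9b 29 and Wnt16 10. Over the 30 member windows the median was 28 pairs, with a range from 4 in 1 of the 3 Wnt5b windows to 58 in Wnt9a, beside a median of 7.0 over all 32851 windows of the table. At least 20 pairs were present in 70% of member windows and in 26.5% of all windows. The 8 windows of the 7 matched genes called higher in KO at a stage had a median of 35 pairs, the 6 windows of the 4 tested genes called at neither stage 25.5, and the 16 windows of genes below the count filter 27.5. Their ranges overlapped, at 10 to 58, 4 to 47 and 6 to 53 pairs, and 3 of the 6 windows belong to Wnt5b. A difference between these sets was not tested. Of the 7 ligands called higher in KO, 4 have a window, with 58 pairs in Wnt9a, 51 in Wnt4, 45 and 23 in the 2 windows of Wnt11 and 10 in Wnt16. The letters CTTTGA or their reverse complement TCAAAG, the core that TCF and LEF factors recognise, occurred in 4 of the 30 member windows (13.3%) and in 16% of all windows. The 4 are Fzd1, Dkk1, 1 window of Wnt5b and the Wnt11 window printed above. No promoter was used for Dkk3, Dkk4, Sfrp1, Sfrp4, Wnt5a, Wnt7b, Wnt8a, Wnt10a, Fzd2, Fzd3, Fzd6, Fzd8, Rspo2 and Rspo3.

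Wnt5a, Wnt9a and Wnt7b were also called higher in KO after PHx and not at baseline. Wnt5a (chr14:28504750-28527448), the main ligand of the beta-catenin-independent branch, measured 1.04, 2.2, 1.29, 2.29 and 1.83 CPM in WT and 3.91, 2.03, 5.24, 1.95 and 2.02 CPM in KO at baseline. After PHx it measured 2.57, 2.39, 3.61, 0.425 and 1.65 CPM in WT and 13.3, 8.59, 5.76, 8.87 and 9.84 CPM in KO. Every KO library after PHx lay above every library of the other 3 groups. KO exceeded WT after PHx 4.36-fold (log2 SE 0.44, edgeR adjusted p = 0.00151), and within KO the level was 3.06-fold higher after PHx than at baseline (edgeR adjusted p = 0.00993). Wnt5a shares 358 exon bases with the antisense gene Gm2670.

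Wnt9a (chr11:59306928-59333552), known from limb joint and blood stem cell development, measured 0.455, 0.80, 0.103, 0.321 and 0.55 CPM in WT and 0.895, 0.211, 0.862, 0.913 and 0.939 CPM in KO at baseline. After PHx its levels were 0.523, 1.3, 0.647, 0.673 and 0.275 CPM in WT and 7.45, 3.79, 1.41, 1.14 and 2.6 CPM in KO. KO mice 7 and 8, both collected at 48 h, were highest, and KO mouse 11 lay below the highest WT value. The difference after PHx was 4.79-fold, log2 2.26 (SE 0.57), edgeR adjusted p = 0.00693. Within KO it was 4.28-fold higher after PHx (edgeR adjusted p = 0.011), and with mouse as a block the adjusted p was 0.056. Its neighbour Wnt3a, 16175 bases away on the other strand, had 2 counts in all 20 libraries together.

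Wnt7b (chr15:85535437-85582473), a canonical ligand known from lung and kidney, was low throughout. Baseline levels were 0, 0, 0, 0.183 and 0 CPM in WT and 0.464, 0.0422, 0.103, 0.249 and 0.0469 CPM in KO. After PHx they were 0.0872, 0.174, 0.114, 0.248 and 0 CPM in WT and 1.44, 1.05, 0.114, 0.638 and 0.71 CPM in KO, where 4 KO mice lay above all WT mice and KO mouse 10 lay among them. The edgeR call after PHx, 6.2-fold at an adjusted p of 0.031, was lost when any of WT mice 1, 3 and 5 or KO mice 7 and 8 after PHx was omitted (adjusted p between 0.0627 and 0.0732), and also without the count filter (0.0568) or with time as a covariate (0.0501). The baseline difference had an edgeR adjusted p of 0.187, or 0.0391 without WT baseline mouse 4, and the KO response one of 0.0633, or 0.0279 and 0.0381 without KO mouse 10 after PHx and KO mouse 7 at baseline. Wnt7b shares 324 exon bases with the antisense gene AU022754.

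**Figure D1:**
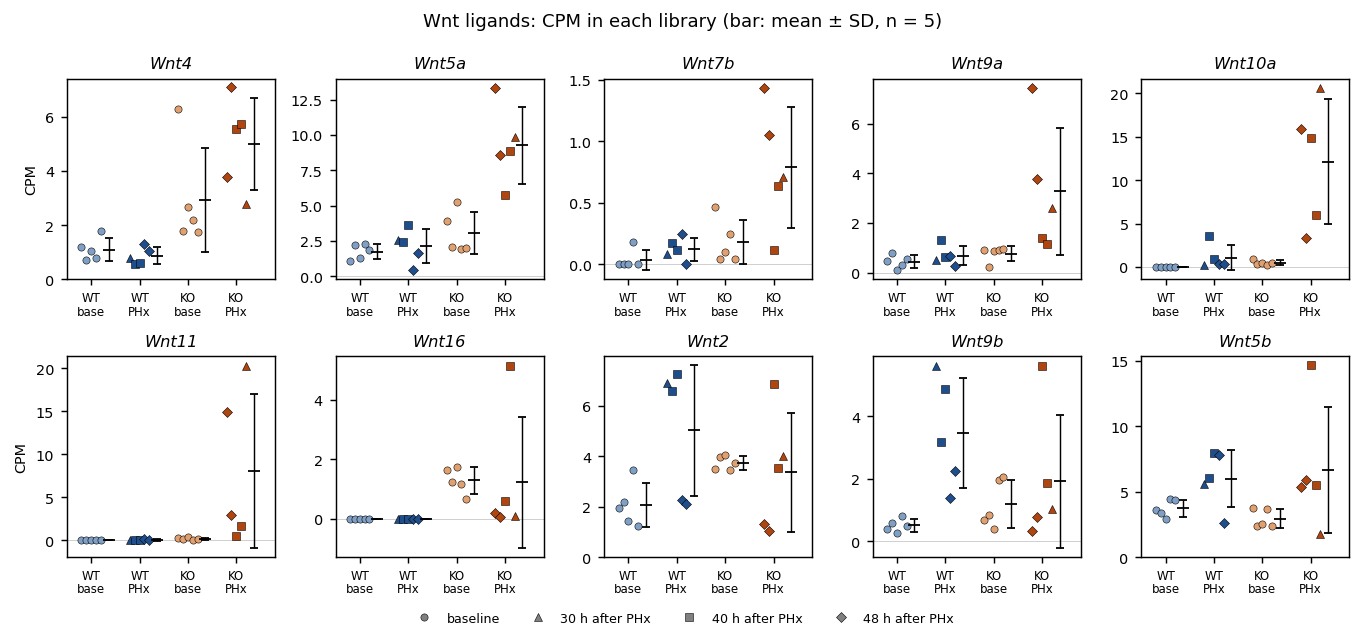
Level of the 10 tested Wnt ligands in CPM (vertical axis) in each library of the 4 groups (horizontal axis), with marker shape giving the time after PHx and the black bar the mean ± SD (n = 5). Wnt5a in KO after PHx lies above every other library, Wnt16 is at 0 in all WT libraries, and Wnt2 and Wnt9b lack a KO excess after PHx.

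The ligands known from central vein endothelium, Wnt9b and Wnt2, were not called between genotypes at either stage in the edgeR fit with all libraries, and neither was Wnt5b. Wnt9b (chr11:103727364-103749821) measured 0.39, 0.60, 0.257, 0.825 and 0.504 CPM in WT baseline liver and 5.62, 3.17, 4.87, 1.38 and 2.27 CPM in WT liver after PHx, with every value after PHx above every baseline value. The edgeR fit put this at 6.62-fold, log2 2.73 (SE 0.66), adjusted p = 0.00779; with mouse as a block it was log2 2.32 at an adjusted p of 0.0775. In KO, Wnt9b measured 0.697, 0.845, 0.414, 1.95 and 2.06 CPM at baseline and 0.329, 0.789, 5.6, 1.86 and 1.04 CPM after PHx. KO mouse 10 alone reached the level of the higher WT mice, and the other 4 stayed within or under the range of KO baseline. The KO response was log2 0.69 (SE 0.62), adjusted p = 0.404, and the difference of the 2 responses was log2 -2.04 (SE 0.89), with an edgeR adjusted p of 0.329. Without KO mouse 10 after PHx, that difference was -2.97 at an edgeR adjusted p of 0.0371, and KO was lower than WT after PHx by log2 -1.78 at an adjusted p of 0.0203.

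Wnt2 (chr6:17988940-18030585) was called in none of the 5 contrasts. It measured 1.95, 2.2, 1.44, 3.44 and 1.24 CPM in WT and 3.48, 3.97, 4.03, 3.45 and 3.71 CPM in KO at baseline, ranges that touch without overlapping. After PHx the values were 6.89, 6.56, 7.26, 2.27 and 2.09 CPM in WT and 1.32, 1.03, 6.86, 3.52 and 4.02 CPM in KO. WT mice 1, 2 and 3, collected at 30 and 40 h, were high and WT mice 4 and 5, collected at 48 h, low. Among KO mice the pair collected at 48 h was also lowest and mouse 10 highest. The WT response was log2 1.28 (SE 0.47) with an edgeR adjusted p of 0.0591, and the KO response log2 -0.16 (SE 0.46) with 0.815. The WT response was called by DESeq2 (adjusted p = 0.0282) and by edgeR without WT mouse 4 at either stage or WT mouse 5 after PHx, at 0.0314 to 0.0453.

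Wnt5b (chr6:119432531-119544347), a close relative of Wnt5a, was not called between genotypes at either stage. It measured 3.57, 3.35, 2.93, 4.45 and 4.36 CPM in WT and 3.75, 2.41, 2.52, 3.7 and 2.35 CPM in KO at baseline, and 5.58, 6.04, 7.95, 7.83 and 2.61 CPM and 5.36, 5.9, 14.7, 5.52 and 1.75 CPM after PHx. KO mouse 10 stood far above the others and KO mouse 12 below its own group's baseline range. The KO response was called at 2.25-fold (edgeR adjusted p = 0.0334), but with mouse as a block the adjusted p was 0.152 and without KO mouse 10 after PHx it was 0.134. It was also lost without the count filter (0.0523), with the 10 KO samples alone (0.0822) and without KO mouse 8 at either stage or KO mouse 10 or 12 at baseline (0.0506 to 0.0753).

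Of the 8 Frizzled receptors that could be tested, 7 were higher in KO after PHx. Fzd3 (chr14:65192449-65262463), a receptor known from axon guidance, was the receptor called at baseline too. It measured 0.39, 0.050, 0.0515, 0.0459 and 0 CPM in WT and 1.26, 1.23, 1.9, 0.623 and 0.798 CPM in KO at baseline, with no overlap. After PHx it measured 0.131, 0.348, 0.228, 0.39 and 0.0343 CPM in WT and 5.92, 3.88, 1.3, 1.11 and 5.25 CPM in KO, again apart, with KO mice 10 and 11, both collected at 40 h, lowest among KO. The differences were 11.4-fold at baseline, log2 3.51 (SE 0.77), and 15.2-fold after PHx, log2 3.92 (SE 0.71), with edgeR adjusted p of 0.00406 and 0.000538. Without WT baseline mouse 1 the baseline difference was 28.5-fold. The KO response was log2 1.58 (SE 0.63) at an edgeR adjusted p of 0.0631, and without KO mouse 10 or 11 after PHx the adjusted p was 0.0312 or 0.0391.

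Fzd2 (chr11:102604396-102608058), known from palate and limb development, was nearly silent in WT, at 0.195, 0.15, 0, 0.0459 and 0.183 CPM at baseline and 0, 0.0435, 0.342, 0.0354 and 0.103 CPM after PHx. In KO it measured 0.531, 0.169, 0.207, 0.747 and 0.141 CPM at baseline and 1.35, 2.06, 0.496, 5.49 and 0.426 CPM after PHx. All KO values after PHx were above all WT values after PHx, and KO mouse 11 was the highest. KO exceeded WT after PHx 17.8-fold (log2 SE 0.89, edgeR adjusted p = 0.00211), or 37.9-fold without WT mouse 3 and 9.49-fold without KO mouse 11. The KO response, 5.42-fold at an edgeR adjusted p of 0.0276, was 2.89-fold and not called without KO mouse 11 after PHx (adjusted p = 0.12), and leaving out KO mouse 8 at either stage, or KO mouse 10 or 12 at baseline, also ended the call at 0.0507 to 0.0686.

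Fzd5 and Fzd6 were the most abundant receptors in KO liver after PHx. Fzd5 (chr1:64730558-64737751), a receptor for canonical ligands, measured 12.9, 7.45, 4.17, 14.2 and 11.4 CPM in WT and 10.7, 5.2, 14.9, 10.3 and 13.7 CPM in KO at baseline, and 8.63, 9.22, 9.89, 6.34 and 10.3 CPM and 22, 46.9, 7.93, 35 and 28 CPM after PHx. Of the KO mice after PHx, 4 were above every library of the other groups, and KO mouse 10 lay within the WT range. The difference after PHx was 3.15-fold, log2 1.66 (SE 0.39), edgeR adjusted p = 0.00405, and at baseline log2 0.13 (SE 0.38), adjusted p = 0.857. The response within KO was 2.56-fold (edgeR adjusted p = 0.014), and with mouse as a block the adjusted p was 0.0973. The difference of the responses was log2 1.53 (SE 0.54) (edgeR adjusted p = 0.221), and 1.76 at 0.0338 without KO mouse 10 after PHx. The exons of Fzd5 overlap Gm38058 on the other strand by 1233 bases.

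Fzd6 (chr15:39006034-39038188), a receptor of tissue polarity in skin and hair, measured 4.29, 3.3, 2.52, 3.35 and 4.4 CPM in WT and 10.5, 4.31, 9.0, 4.24 and 7.42 CPM in KO at baseline. After PHx it measured 4.01, 7.52, 3.69, 4.08 and 5.9 CPM in WT and 36.6, 28.6, 4.96, 14.7 and 31.5 CPM in KO. KO mouse 10 again lay inside the WT range, while the other 4 KO mice were above it. The edgeR fit called it 4.62-fold higher in KO after PHx (adjusted p = 0.000646) and 3.28-fold higher after PHx than at baseline within KO (adjusted p = 0.00513). In KO mouse 10 after PHx the 8 cholangiocyte markers were also lowest, at 51.9 CPM, and Mki67 highest of the 5 KO mice.

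Fzd4 (chr7:89404355-89413134), known from retinal vessel growth, measured 9.55, 8.5, 7.87, 7.93 and 8.03 CPM in WT and 7.5, 7.94, 12.3, 7.85 and 8.54 CPM in KO at baseline, where the ranges overlapped. After PHx it measured 12.7, 13, 9.43, 4.61 and 7.14 CPM in WT and 13.4, 15.7, 8.31, 25.2 and 26.2 CPM in KO, with KO mice 11 and 12 highest and KO mouse 10 inside the WT range. The 1.9-fold difference after PHx (edgeR adjusted p = 0.0284) was lost when WT mouse 3, 4 or 5 or KO mouse 11 or 12 after PHx was omitted, at adjusted p between 0.0509 and 0.0894, and with the 10 samples after PHx alone (0.152). Within KO the level was 2.01-fold higher after PHx (edgeR adjusted p = 0.0169; 0.0653 with mouse as a block).

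Fzd1 (chr5:4753839-4758035), another receptor for canonical ligands, measured 6.17, 5.55, 5.3, 6.83 and 6.33 CPM in WT and 10.3, 7.05, 9.07, 10.3 and 10.6 CPM in KO at baseline. These ranges did not overlap, but the log2 difference of 0.65 (SE 0.25) was not called (edgeR adjusted p = 0.0866). After PHx it measured 5.01, 4.52, 3.8, 3.33 and 9.58 CPM in WT and 9.4, 8.31, 11.4, 7.27 and 12.9 CPM in KO, and WT mouse 5 lay within the KO range. The difference after PHx was 1.88-fold at an edgeR adjusted p of 0.013. With only the 10 samples of each stage it was called at baseline (0.00285) and not after PHx (0.109).

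Fzd8 (chr18:9212163-9218136), a receptor for canonical ligands, was the 1 member called lower in any of the 5 contrasts. In WT it measured 13.7, 13.6, 6.07, 16.3 and 7.8 CPM at baseline and 7.5, 4.48, 2.89, 3.12 and 3.43 CPM after PHx, a 2.68-fold fall, log2 -1.42 (SE 0.33), edgeR adjusted p = 0.00547. In KO it measured 9.12, 7.35, 11.4, 6.35 and 10.8 CPM at baseline and 17.7, 8.94, 7.93, 9.79 and 16.1 CPM after PHx, where no KO value fell to the WT level after PHx. KO was 2.83-fold above WT after PHx (edgeR adjusted p = 0.00246), and the genotypes overlapped at baseline. The difference of the responses was log2 1.85 (SE 0.46), with an edgeR adjusted p of 0.0791 and a DESeq2 adjusted p of 0.0104. Without KO mouse 10 or WT mouse 1 after PHx the edgeR adjusted p was 0.0229 or 0.0343.

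Fzd7 (chr1:59482424-59486955), a receptor known from gut stem cells, had the highest level per exon length in 3 of the 4 groups and was not called in any contrast. It measured 15, 15.5, 6.48, 27.2 and 25.3 CPM in WT and 13.1, 4.77, 15.2, 17.9 and 14 CPM in KO at baseline, and 16.9, 15, 9.47, 5.78 and 16.6 CPM and 4.67, 6.09, 6.71, 8.82 and 7.43 CPM after PHx. The KO libraries after PHx were narrowly grouped at the low end of the range of the other groups. KO minus WT after PHx was log2 -0.92 (SE 0.37) with an edgeR adjusted p of 0.0813, and without WT mouse 4 after PHx it was -1.11 at 0.0349. The KO response was log2 -0.94 (SE 0.37) with an edgeR adjusted p of 0.0625, or 0.0244 without KO baseline mouse 8.

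**Figure D2:**
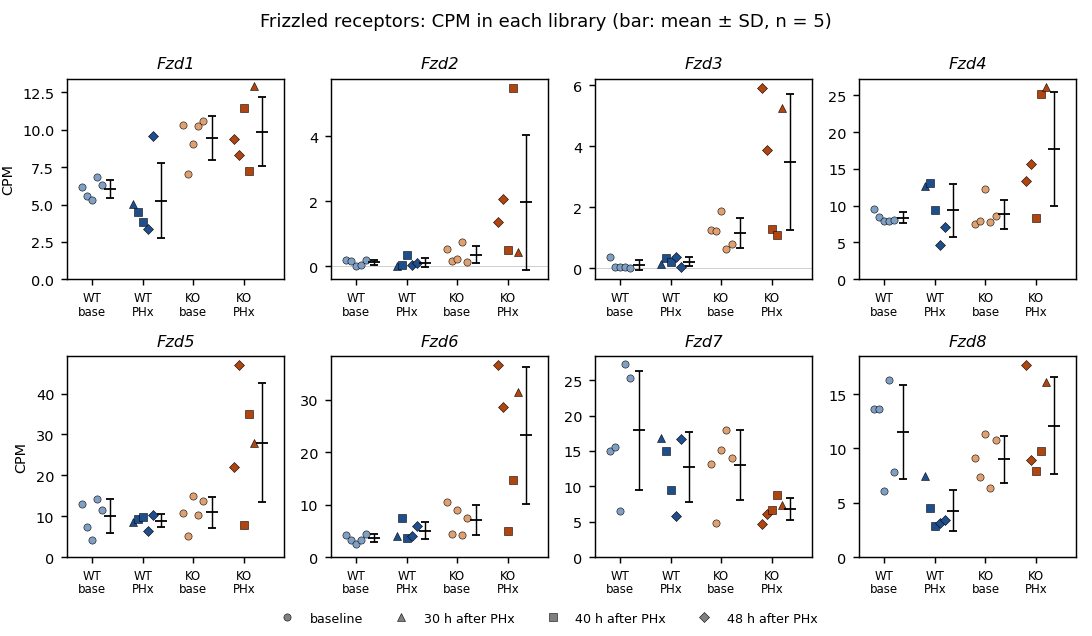
Level of the 8 tested Frizzled receptors in CPM (vertical axis) in each library of the 4 groups (horizontal axis), with marker shape giving the time after PHx and the black bar the mean ± SD (n = 5). In 4 of 5 KO libraries after PHx, Fzd5 and Fzd6 are above every library of the other groups. Fzd8 after PHx is lower in every WT library than in any KO library.

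Rspo3 (chr10:29452416-29535867) was the 1 R-spondin with enough counts to be tested. It measured 3.96, 3.65, 2.98, 5.73 and 3.67 CPM in WT and 5.84, 5.74, 5.38, 5.27 and 6.01 CPM in KO at baseline, and 5.06, 7.96, 6.09, 10.6 and 4.02 CPM and 13.2, 6.25, 6.52, 5.02 and 6.62 CPM after PHx. The genotypes overlapped at both stages, with KO mouse 7 after PHx standing above the rest. The genotype differences were log2 0.50 (SE 0.29) at baseline and 0.16 (SE 0.28) after PHx, with edgeR adjusted p of 0.25 and 0.719. The WT response of log2 0.75 (SE 0.29) had an edgeR adjusted p of 0.0676; DESeq2 gave 0.0361, and edgeR gave 0.0236 without WT mouse 5 after PHx and 0.0463 without WT baseline mouse 4. Rspo3 shares 404 exon bases with the antisense gene Gm48159.

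The 2 testable inhibitors were both higher in KO after PHx. Dkk3 (chr7:112116017-112159057), a divergent Dickkopf that is not a classical LRP blocker, measured 0.52, 1.05, 0.978, 0.734 and 0.504 CPM in WT and 9.12, 3.59, 4.07, 3.82 and 3.85 CPM in KO at baseline, and 1.22, 1.0, 1.06, 0.886 and 1.61 CPM and 13.3, 4.21, 4.23, 8.93 and 5.96 CPM after PHx. No KO library overlapped a WT library at either stage, and KO mouse 7 was highest at both. The difference was 6.42-fold at baseline, log2 2.68 (SE 0.39), and 6.31-fold after PHx, log2 2.66 (SE 0.38), with edgeR adjusted p of 9.13e-05 and 5.69e-05. The stage made little difference within either genotype, with edgeR adjusted p of 0.27 in WT and 0.214 in KO.

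Sfrp1 (chr8:23411502-23449632), which binds Wnt ligands outside the cell, measured 0.39, 0.80, 0.412, 0.459 and 0.504 CPM in WT and 1.06, 1.99, 1.66, 1.33 and 1.69 CPM in KO at baseline. After PHx it measured 0.0436, 0.0435, 0, 0 and 0.652 CPM in WT and 1.2, 1.23, 0.61, 0.887 and 2.79 CPM in KO. It was nearly absent from 4 WT mice after PHx, and WT mouse 5 reached the lowest KO value. The edgeR fit called it 8.5-fold higher in KO after PHx, log2 3.09 (SE 0.78), adjusted p = 0.00696; at baseline the log2 difference was 1.58 (SE 0.72) at 0.144. The WT response was log2 -1.72 (SE 0.78) (edgeR adjusted p = 0.128), and -4.32 at 0.000521 without WT mouse 5 after PHx. Without that library the KO excess after PHx was 53.7-fold (adjusted p = 2.47e-05), and with the 10 samples after PHx alone it was not called (0.0845). Without WT mouse 5 the difference of the responses was also called (log2 4.11, edgeR adjusted p = 0.0336), which it was not with all libraries (0.552).

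**Figure D3:**
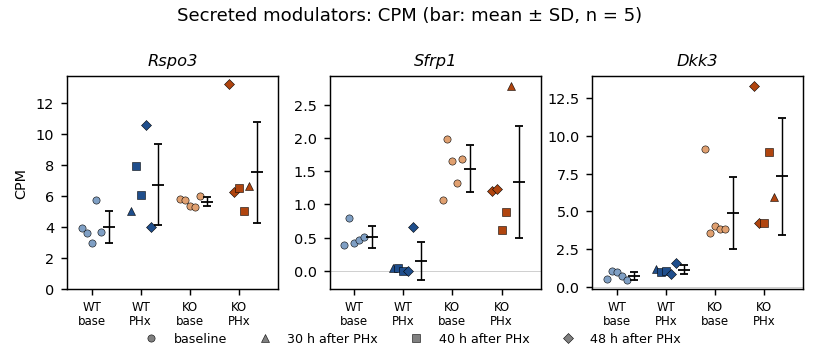
Level of the 3 tested secreted modulators in CPM (vertical axis) in each library of the 4 groups (horizontal axis), with marker shape giving the time after PHx and the black bar the mean ± SD (n = 5). Dkk3 separates the genotypes at both stages, while Rspo3 overlaps.

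The other 20 members had too few counts for a test. Of the 18 with a count, 8 (44.4%) had none in any WT library: Fzd10, Rspo4, Sfrp2, Wnt3, Wnt3a, Wnt6, Wnt8b and Wnt10b. The same held for 33% of the 4092 protein-coding genes below the filter with a count. Fzd9, a receptor known from bone and brain, had 0, 0, 1, 1 and 1 counts in WT and 2, 1, 0, 0 and 0 counts in KO at baseline. After PHx it had 4, 2, 5, 10 and 0 counts in WT and 98, 79, 1, 40 and 90 counts in KO, so that KO mouse 10 stood apart from the other 4. Fzd10 had 11, 3, 1, 4 and 0 counts in KO at baseline and 30, 39, 0, 15 and 0 counts after PHx.

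Wnt8b, a ligand of forebrain development, had 1 count in KO at baseline and 14, 4, 0, 9 and 11 counts after PHx. Wnt10b, next to Wnt1 on chromosome 15 and known as an inhibitor of fat cell formation, had no count in KO at baseline and 15, 19, 0, 1 and 2 counts after PHx. Wnt3, the neighbour of Wnt9b, had 9, 6, 0, 2 and 0 counts in KO after PHx and none elsewhere. Rspo4, an R-spondin of nail development, had 2 counts in KO at baseline and 4, 14, 0, 7 and 4 after PHx, and Sfrp2 had 7 and 20. Sfrp4 differed from these in that it was highest at baseline, with 10, 16, 10, 3 and 8 counts in KO against 1 in WT, and 2, 2, 2, 5 and 4 in KO against 1 in WT after PHx. In an edgeR fit without the count filter, Sfrp4 was called higher in KO at baseline (log2 4.73, adjusted p = 0.00342), and Sfrp4, Sfrp2, Rspo4, Wnt8b, Wnt10b, Fzd9 and Fzd10 were called higher in KO after PHx, with adjusted p from 0.00712 for Fzd9 to 0.04 for Wnt10b. That fit called 6.30% and 10.3% of all genes higher at baseline and after PHx. Of the genes below the filter it called 1 and 7 of the 18 members, beside 1.88% and 13.4% of the 4092 protein-coding genes.

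Dkk4, a classical LRP blocker and a known target of beta-catenin, ran the other way, with 1, 5, 1, 3 and 3 counts in WT at baseline and 5 in KO, then 8 in WT after PHx, all in mouse 5, and 1 in KO. Wnt7a, known from limb and female tract, had 1 and 19 counts in WT and KO at baseline and 17 and 43 after PHx. Rspo1 had 4 and 7 counts at baseline and 6 and 13 after PHx. Wnt2b had 0 and 1 counts at baseline and 5 and 11 after PHx, and Wnt1 had 0 and 4, then 3 and 3. Dkk1, the best known LRP blocker, had 0 and 1 counts at baseline and 2 and 3 after PHx, Dkk2 had 0 and 2, then 1 and 1, and Sfrp5 had 1 and 0, then 0 and 6. At these counts a difference between groups was not detectable. For Rspo2 and Wnt8a the limit of 3 counts over a group allows up to 0.0305 CPM in WT baseline liver, where the summed depth was smallest.

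**Figure D4:**
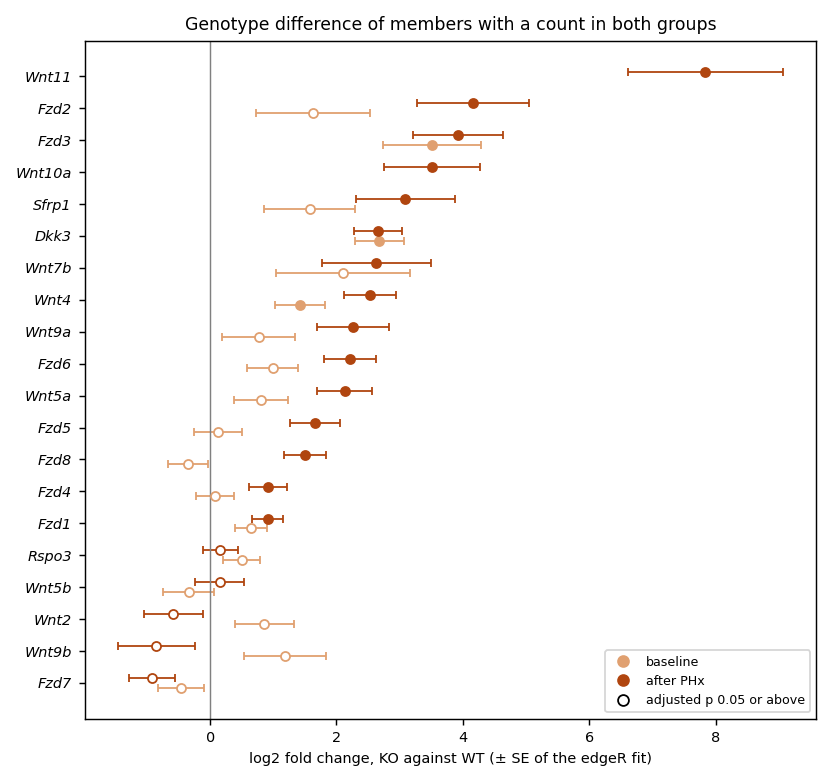
Fitted log2 fold change of KO against WT (horizontal axis) with its SE for each tested member (vertical axis), at baseline in light and after PHx in dark, filled where the edgeR adjusted p was under 0.05. Contrasts in which a genotype had no count (Wnt16 at both stages, Wnt10a and Wnt11 at baseline) are left out, and Fzd7, Wnt9b and Wnt2 after PHx lie to the left of 0.

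The response to PHx reached more members in KO than in WT when each genotype was taken alone. In WT 2 members were called higher, Wnt9b and Wnt10a, and 1 lower, Fzd8, beside 11.4% and 8.68% of all tested genes; scaling by library size alone gave 4 higher and 1 lower, and the fit with mouse as a block 1 and 1. In KO 9 were called higher, Fzd2, Fzd4, Fzd5, Fzd6, Wnt5a, Wnt5b, Wnt9a, Wnt10a and Wnt11, and 0 lower, beside 17.5% and 12.1%. With the block 5 of them were called, Wnt9a, Wnt5b, Fzd5 and Fzd4 being lost. Fzd9 then passed the filter through KO libraries after PHx and was called higher, which adds no support. At an unadjusted p under 0.05, 1 member was lower in KO, and DESeq2 called 0. The test of the difference itself called 0 members in either direction, where 0.164% and 0.225% of all tested genes were called. Unadjusted, 4 members had a larger and 2 a smaller KO response at p under 0.05, and DESeq2 called 1, Fzd8. The responses therefore cannot be said to differ between genotypes for any member at this threshold in the edgeR fit with all libraries.

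Split by time after PHx, with 2 mice per genotype at each time, 6 members were higher in KO at 40 h and 12 at 48 h, with 0 lower at either. All tested genes were called higher in 8.61% and lower in 4.68% of cases at 40 h, and in 13.7% and 10.7% at 48 h. Unadjusted, 0 members were lower at 40 h and 1 at 48 h; DESeq2 was not run on this split. Dkk3, Fzd2, Wnt4 and Wnt11 were called at both times, Sfrp1 and Wnt16 at 40 h, and Fzd3, Fzd4, Fzd5, Fzd6, Fzd8, Wnt5a, Wnt9a and Wnt10a at 48 h. Wnt5a differed 2.44-fold at 40 h and 10.5-fold at 48 h, with edgeR adjusted p of 0.158 and 0.00222. Wnt9a differed 1.31-fold and 11.8-fold, at 0.755 and 0.00536. For Dkk3 the values were 6.36-fold and 6.97-fold. The change between the times was not tested, and a fit of the 10 samples after PHx alone called 0 members at 40 h and 0 at 48 h.

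Compared per kb of exon, mean levels in WT baseline liver fell from Fzd7 to Fzd6, the ninth in order at 0.741 CPM per kb, and then to Wnt4 at 0.261, with no overlap between Fzd6 and Wnt4. Many members lay far lower or had no count. Fzd7 led in WT baseline liver at 3.95 ± 1.87 CPM per kb, in WT liver after PHx at 2.81 ± 1.08 and in KO baseline liver at 2.87 ± 1.09 (SD, n = 5). In KO liver after PHx the order began with Wnt10a at 4.92 ± 2.94, Fzd6 at 4.83 ± 2.71, Fzd5 at 4.04 ± 2.1 and Fzd4 at 2.64 ± 1.15 CPM per kb, with Fzd7 down at 1.49 ± 0.34. Ranges of neighbours among the first 6 places overlapped in each group, so that their order is not settled. Wnt10a thus moved from no count in WT baseline liver to a level per length within the range of the leading receptors in KO liver after PHx.

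**Figure D5:**
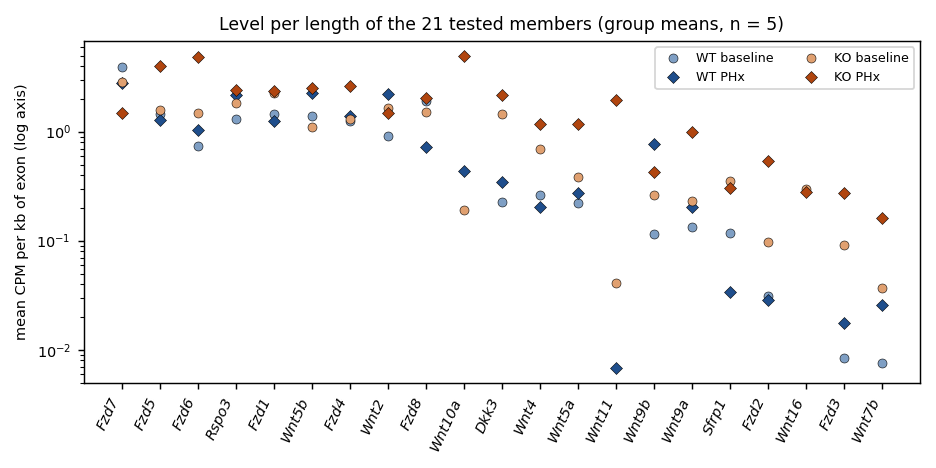
Mean level of the 21 tested members in CPM per kb of exon (vertical log axis, n = 5 per group), ordered by the mean over the 4 groups along the horizontal axis, with circles for baseline and diamonds for after PHx. Group means of 0 (Wnt16 in both WT groups, Wnt10a and Wnt11 in WT baseline) cannot be drawn on a log axis, and Wnt10a in KO after PHx is at the top of the plot.

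Other parts of the pathway were followed in a list of 55 genes, of which 46 were tested. At baseline 7 were higher and 2 lower in KO, beside 11.1% and 4.89% of all tested genes. After PHx 12 were higher and 1 lower, beside 16% and 8.20% of all tested genes. Wls, the carrier that brings Wnt ligands to the cell surface, was 3.14-fold higher in KO at baseline and 3.7-fold after PHx, with edgeR adjusted p of 0.000935 and 0.00019. Gpc3, a surface proteoglycan that binds Wnt ligands and is known from fetal liver, measured 0.154 ± 0.121 CPM in WT baseline livers against 19.8 ± 2.88 CPM in those of KO mice (SD, n = 5; edgeR adjusted p = 1.58e-06). Frzb, a secreted Frizzled-related inhibitor outside the member rule, was 3.95-fold higher at baseline and 2.3-fold after PHx (edgeR adjusted p = 0.000345 and 0.0083), and Kremen1, a receptor for Dickkopf proteins, 2.08-fold after PHx (0.00344).

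Among co-receptors, the R-spondin receptor Lgr4 was 1.57-fold lower in KO at baseline (edgeR adjusted p = 0.0485), and Ptk7 was 3.94-fold higher after PHx (0.0171). In the cytoplasmic relay Dvl1 was 2.21-fold lower and Gsk3b 1.6-fold higher after PHx, with edgeR adjusted p of 0.000135 and 0.0483. Of the nuclear factors, Lef1 was called at both stages from low counts (0.0103 ± 0.023 and 0.383 ± 0.226 CPM at baseline), Tcf7 at baseline (2.39-fold), and Pygo1 (11-fold) and Tcf7l1 (2.29-fold) after PHx.

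Genes known to report beta-catenin activity did not move as 1 group. The feedback inhibitor Nkd1 was 2.27-fold higher in KO at baseline and 1.79-fold after PHx, with edgeR adjusted p of 0.00321 and 0.0192. Axin2, the usual reporter, measured 6.0 ± 4.02 CPM in WT and 8.5 ± 3.75 in KO at baseline, and 6.52 ± 5.33 and 3.79 ± 3.94 after PHx, with edgeR adjusted p of 0.655 and 0.425. Lgr5 measured 3.8 ± 1.8 and 6.16 ± 1.01 CPM, then 3.92 ± 3.78 and 2.05 ± 2.12 CPM, with 0.636 and 0.476. Glul, the glutamine synthetase of the hepatocytes next to the central vein, measured 833 ± 206 and 806 ± 122 CPM at baseline and 400 ± 362 and 814 ± 333 CPM after PHx, with 0.958 and 0.111; without WT mouse 1 after PHx the latter was 0.0109. Split by time, Axin2 was 2.61-fold higher in KO at 40 h (edgeR adjusted p = 0.23, not called) and 6.48-fold lower at 48 h (0.0238). Glul was 6.78-fold higher at 40 h (0.00259) and 1.51-fold at 48 h (0.339, not called). Over all tested genes, 8.61% were called higher and 4.68% lower at 40 h, and 13.7% and 10.7% at 48 h. Of the 46 tested genes of the list, 5 were called higher and 1 lower at 40 h, and 9 higher and 5 lower at 48 h. The lower ones at 48 h included Cyp1a2, Oat and Slc1a2 of the central vein targets, at 9.78-fold, 4.19-fold and 6.91-fold (edgeR adjusted p = 0.0103, 0.0392 and 0.0225), named here after their values were seen. With the 10 samples after PHx alone, 0 were called at 40 h and 1, Gpc3, at 48 h, and the change between the times was not tested. Of the 9 listed hepatocyte targets near the central vein, the ammonium transporter Rhbg was higher in KO at both stages (6.6-fold and 4.0-fold) and Cyp2e1 2.4-fold lower at baseline (edgeR adjusted p = 0.0306). The baseline calls for Lgr4, Tcf7 and Cyp2e1 and the calls after PHx for Gsk3b and Lef1 were lost when any of most single libraries was left out. With the 10 samples after PHx alone, Ptk7, Nkd1 and Rhbg were not called (edgeR adjusted p = 0.0538, 0.0797 and 0.0902). Ptk7 was also lost without KO mouse 8 after PHx (0.0549).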

How the data were processed

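RNA was measured in 20 mouse liver libraries, 5 per group. The deposited files hold raw gene counts per library; the authors made them from uniquely mapped paired-end reads of polyA RNA aligned to mm10, per the labels and the series' design text. The trimmer is given as fastp 0.20.0 in the design text and as Trimmomatic 0.36 in the submitters' processing notes. The aligner, counter, annotation release and strand setting are not given in the sources used here. Of the identifiers, 46005 matched GENCODE M21, which gave symbols, positions on mm10 and exon lengths.

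Counts were filtered with filterByExpr and fitted with edgeR 4.0.16 (R 4.3.3) as 4 group means over 20 libraries, with TMM scaling and the quasi-likelihood test. A second fit gave genotype by time. Alternatives used DESeq2 1.42.0 size factors and test, library size alone, other filters, fewer samples, time as a covariate, mouse as a block and each library left out. The same mouse gave both stages, per the labels, and same-mouse deviations from the group means correlated at -0.051 to 0.149 over 9 mice with a number in both titles; WT baseline library 1 carries none. On simulated data with 200 genes changed 4-fold among 14338 genes, the baseline genotype comparison recovered 79%. Over similar numbers of genes, recovery was 72% for the genotype comparison after PHx, 73% for the WT response and 81.5% for the KO response. It was 58% for the difference of the responses. The changed genes were drawn from those above a mean count, so these shares do not cover members with few counts. Total counts per library set the counting precision. Folds against a group at 0 use 3 counts over the group.

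All members were to be named with a level, with values per library for members called in at least 1 of the 5 contrasts and for the 3 highest per length; pathway genes were the up to 3 largest calls per list, plus Axin2, Lgr5 and Glul. Members and lists were chosen with earlier results of these data known. The hepatocyte marker symbol Tf matched no identifier. No statement in the labels says that libraries of a group were independent beyond the mouse numbers.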

Additional observations from a re-analysis of the deposited data

Results flagged for a closer look

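Within a group of 5 libraries, a library was singled out when its gap to the nearest other library exceeded 0.71 of the whole range. For normally distributed values this flags about 1 in 20. A group with a count in a single library always meets it, so the share expected from these low counts is not known. Here 15 of 80 gene and group combinations met it. No pattern of these was tested further. At WT baseline, Fzd3 was 0.390 CPM in mouse 1 with the next at 0.0515, Sfrp1 was 0.80 CPM in mouse 2 with the next at 0.504, and Wnt7b was 0.183 CPM in mouse 4 with the others at 0. In WT after PHx, Fzd1 was 9.58 CPM and Sfrp1 0.652 CPM in mouse 5, Wnt10a was 3.56 CPM in mouse 2 with the next at 0.913 and Wnt11 was 0.142 CPM in mouse 4 with the others at 0. At KO baseline, mouse 7 was high for Dkk3 (9.12 CPM, next 4.07) and Wnt4 (6.3 CPM, next 2.65), mouse 10 was high for Fzd4 (12.3 CPM, next 8.54) and mouse 8 was low for Wnt9a (0.211 CPM, next 0.862). In KO after PHx, Rspo3 was 13.2 CPM in mouse 7, Sfrp1 2.79 CPM in mouse 12, Wnt9b 5.60 CPM in mouse 10 and Wnt16 5.16 CPM in mouse 11.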

How the results depend on the processing

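No member changed direction past the threshold under any alternative run. Counts cover all members that passed the filter in each fit, which can let in members outside the 21. Members called higher in KO at baseline numbered 5 with all libraries, 12 with library size alone, which shifted the median of all genes by 0.45 (log2), 9 with the 10 samples of that contrast, and 4 to 5 with each library left out. After PHx, 15 to 18 were higher (14 to 16 of the 21) and 0 to 1 lower with each library left out, and 11 were higher with the 10 samples of that contrast. For the WT response, 4 were higher with library size alone, 4 with DESeq2 and 1 with mouse as a replicate block, and 2 to 4 higher and 1 to 2 lower with each library left out. For the KO response the block gave 6 higher, 5 of the 21 and Fzd9, and leaving out libraries gave 7 to 12 higher (7 to 11 of the 21) and 0 to 1 lower. The difference of the responses gave 1 higher with DESeq2, and 0 to 2 higher and 0 to 1 lower with each library left out. The block changed no call of a member beyond those named in the text. With the 10 samples after PHx alone, 0 members were called at 40 h and 0 at 48 h, where fewer samples estimate the spread. Other causes were not tested. Taking the longest transcript as length was checked for Fzd7, Fzd8 and Fzd5 only. Their longest transcript is as long as all their exons, so their levels could not change. In KO after PHx, Fzd6 was 4.83 CPM per kb over all exons and 5.38 with the longest transcript. Wnt10a there was 4.92 with either length. Depth limits the 20 members below the filter.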
